A study of Homo sapiens with 8 samples.

Results

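The RNA of MDA-MB-231 cells labelled Kashlid, whose SUN2 lacks residues 569 to 585, was compared with that of the unmodified cells, labelled WT. The comparison takes 4 of the 8 libraries of the series, the 2 Kashlid and the 2 WT columns of the table of read counts per gene. It is described across the 14016 of 25369 genes that passed a filter on low counts. MDA-MB-231 is an established human line of triple-negative breast cancer with a mesenchymal appearance. The other 4 libraries are 2 of SUN2KO, labelled as a knockout of SUN2, and 2 of LBD, whose SUN2 lacks residues 1 to 139. They entered the low-count filter and the estimate of the spread of every test, and they are compared with Kashlid at the end. All 4 groups are the same cell line, and no treatment is labelled for any of them. The labels do not say how the truncations were introduced, whether the full-length gene was still present, or whether a line is 1 clone. They do not say either that the replicates were separate cultures, so p-values rest on the spread among these libraries alone, and that spread may be technical.

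SUN2 is a protein of the inner nuclear membrane. Its C-terminal SUN domain holds the KASH tails of nesprins in the space between the nuclear membranes, and its N-terminal part faces the lamina, so that the LINC complex they form couples the cytoskeleton to the nuclear interior. The KASH lid is a loop of the SUN domain that closes over the bound KASH tail. Per the series design, deleting it was meant to break the connection of SUN2 to Nesprin-2G, the giant nesprin that binds actin.

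Each library held between 16570099 and 18814795 counts. Levels are given in CPM, the usual scaling of counts to a common library total, here after TMM factors. All 13 markers of MDA-MB-231 and related basal lines were measured, at a summed 2360 and 2411 CPM in WT and 1961 and 2056 CPM in Kashlid. Of 14 luminal breast markers PGR, TFF3 and SPDEF stood at or near 0 counts, but the keratin KRT8 was at 1064 and 1024 CPM, KRT18 at 453 and 443 CPM and XBP1 at 109 and 105 CPM in WT. Of 12 fibroblast and blood markers CD3E, HBB and PDGFRA were at 0, and LUM was at 87.3 and 94 CPM in WT. The Kashlid libraries differed from each other by over 1.5-fold in 87 of the 10889 genes with a mean of 5 CPM or more, against 26 genes between the WT libraries. Genes that set them apart included CXCL8, IL6, ATF3 and ERN1, all higher in replicate 1, and the structured RNAs RPPH1 and RMRP, higher in replicate 2.

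SUN2 itself was lower in Kashlid. It stood at 83.7 and 81.9 CPM in WT and at 37.2 and 35.4 CPM in Kashlid, 43.8% of the WT level (log2 fold change -1.19 ± 0.08 (SE), adjusted p = 2.28e-10, edgeR quasi-likelihood test with Benjamini-Hochberg adjustment). Both Kashlid libraries were far below both WT libraries. Counts per gene do not show whether the transcripts carry the deletion, so this level does not check the truncation itself. The fitted difference from the mean of SUN2KO and LBD was 0.24 (adjusted p = 0.0381), from 0.37 ± 0.09 against SUN2KO (adjusted p = 0.00384) and 0.11 ± 0.09 against LBD (adjusted p = 0.555).

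At an adjusted p under 0.05, 6232 genes differed between Kashlid and WT, 44.5% of those tested, with 3047 higher (21.7%) and 3185 lower (22.7%) in Kashlid. Most changes were small. Over all tested genes the median size of the log2 fold change was 0.251, and the 5th and 95th percentiles of the log2 fold change were -0.81 and 0.96. A limit of at least 2-fold left 513 genes higher (3.66%) and 405 lower (2.89%). Scaling by library size alone turned the balance, to 3526 higher and 2780 lower. DESeq2 called 5096 of the 6232 genes, and a fit of the 4 Kashlid and WT libraries alone called 5831 of 13630. The authors' deposited table called 4071 genes, and 4066 of these were called here, all in the same direction. With so many genes called, the counts of each gene group below are read against 21.7% higher and 22.7% lower, and the median over all tested genes was 0.005.

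**Figure D1:**
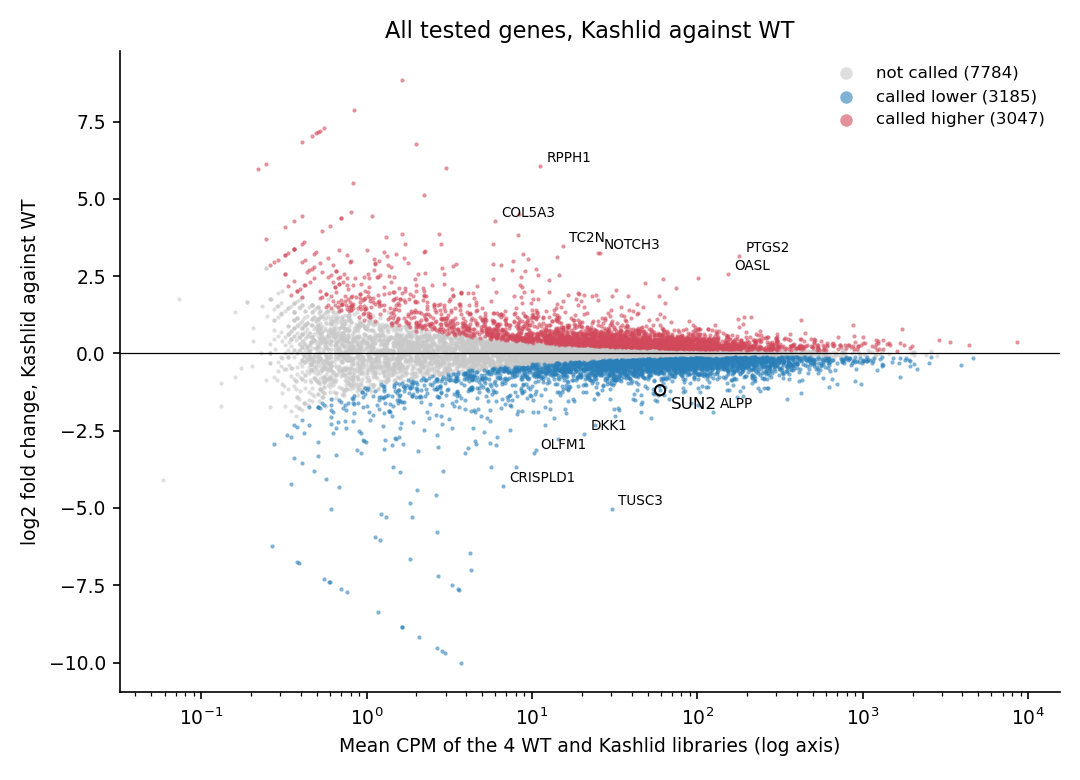
Each point is 1 of the 14016 tested genes, by its mean CPM over the 4 WT and Kashlid libraries (log axis) and its log2 fold change, Kashlid against WT. Genes called higher (3047) are red, those called lower (3185) blue, and SUN2 is circled. Points in straight rows at the far left have 0 counts in a group, and their fitted change depends on the prior count of the model.

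The largest increases with agreeing replicates, for a mean level of 5 CPM or more, were in COL5A3, AKR1C2, RNF125, TC2N and NOTCH3. COL5A3, a chain of the fibrillar collagen V (chromosome 19, 10070237 to 10121147, hg19), was at 0.594 and 0.568 CPM in WT and at 11.4 and 11.3 CPM in Kashlid, 19.5-fold higher (log2 fold change 4.27 ± 0.24, adjusted p = 1.58e-11). AKR1C2, a reductase that inactivates steroid hormones, went from 1.25 and 0.909 CPM to 14.3 and 16.5 CPM (3.83 ± 0.19, adjusted p = 3.11e-12). Reads of AKR1C2 can also fit its close paralogs, which leaves its level uncertain. RNF125, a ubiquitin ligase that restrains the RNA sensors RIG-I and MDA5, stood at 0.892 and 0.909 CPM in WT and at 12.1 and 9.15 CPM in Kashlid (3.55 ± 0.24, adjusted p = 2.86e-10). In each of these 3 genes the WT libraries were near the lower end of measurement and both Kashlid libraries were well above. Set against the other modified lines, COL5A3 was higher in Kashlid than in SUN2KO but did not pass against LBD. RNF125 passed against neither line, and AKR1C2 was lower in Kashlid than in both.

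TC2N, a protein with C2 domains (chromosome 14, 92246096 to 92302870), rose from 2.62 and 2.44 CPM to 29.6 and 26.8 CPM (3.48 ± 0.15, adjusted p = 2.78e-13). NOTCH3, a receptor of the Notch pathway (chromosome 19, 15270444 to 15311792), rose from 4.1 and 5.34 CPM to 42.7 and 48 CPM, 9.6-fold (3.26 ± 0.13, adjusted p = 7.95e-14). PTGS2, the inducible cyclooxygenase that starts prostaglandin synthesis (chromosome 1, 186640944 to 186649559), was the most abundant of the strongly raised genes. Its level was 35.7 and 37 CPM in WT and 372 and 269.7 CPM in Kashlid, 8.83-fold higher (3.14 ± 0.12, adjusted p = 3.43e-14). EGR1, an immediate early transcription factor, was at 3.57 and 2.33 CPM in WT and at 32.3 and 18.4 CPM in Kashlid (3.11 ± 0.23, adjusted p = 1.21e-09). PTGS2 and EGR1 were both higher in Kashlid replicate 1 than in replicate 2, and in both genes the groups did not overlap.

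The remaining large increases were in SYTL4 (3.20 ± 0.19), a regulator of vesicle exocytosis, the axonemal dynein assembly factor DNAAF3 (2.98 ± 0.23), SRPX2 (2.89 ± 0.19), the adhesion receptor GPR97 (2.85 ± 0.25), the phospholipid flippase ATP8A1 (2.68 ± 0.20), the leukotriene enzyme ALOX5 (2.66 ± 0.18), the transcription factor NFE2 (2.55 ± 0.19) and the zinc finger gene ZNF300 (2.53 ± 0.13). Their adjusted p was at most 1.3e-08. OAS2, IFI44L and OASL belong to the interferon genes described below. RPPH1 and RMRP, RNAs at the core of ribonucleases P and MRP, had the largest fitted values (6.07 and 4.50), and both rest on Kashlid replicate 2. RPPH1 was at 0.119 and 0.511 CPM in WT and at 0.347 and 43.6 CPM in Kashlid, and without Kashlid replicate 2 its log2 fold change was 0.12 (adjusted p = 0.964). RMRP was at 0.416 and 0.966 CPM in WT and at 0.405 and 31.4 CPM in Kashlid, and without that library its value was -0.77 (adjusted p = 0.699). All 4 tested short structured RNAs were called higher, and without Kashlid replicate 2 none was. Their summed level was 1.01 and 2.05 CPM in WT and 1.73 and 79.6 CPM in Kashlid. Within Kashlid the change is thus found in 1 library only. The sum was 2.08 and 23.5 CPM in LBD, higher in replicate 2 there as well.

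For a mean level of 5 CPM or more, and with the pseudogene TCAM1P (-3.68) set aside, the deepest losses were in TUSC3, CRISPLD1, RCN3 and OLFM1. TUSC3, a subunit of the oligosaccharyltransferase that attaches N-glycans, fell from 54.3 and 63.2 CPM to 1.45 and 2.11 CPM, 33-fold (log2 fold change -5.04 ± 0.17, adjusted p = 7.65e-15). CRISPLD1, a secreted cysteine-rich protein, fell from 12.8 and 12.7 CPM to 0.694 and 0.587 CPM (-4.30 ± 0.27, adjusted p = 7.69e-11). Both were near loss of signal in both Kashlid libraries. RCN3, a calcium-binding protein of the endoplasmic reticulum, was at 15.9 and 13.7 CPM in WT and at 0.925 and 1.41 CPM in Kashlid (-3.66 ± 0.27). OLFM1, a secreted olfactomedin, was at 17.9 and 19.5 CPM in WT and at 1.85 and 2.11 CPM in Kashlid (-3.24 ± 0.20), and the adjusted p of both was at most 1.15e-09. Against SUN2KO and against LBD, OLFM1 was lower in Kashlid as well, whereas TUSC3, CRISPLD1 and RCN3 passed against neither. TUSC3 was at 2.06 and 1.34 CPM in SUN2KO and at 2.72 and 2.27 CPM in LBD.

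Several other strong decreases were in genes of signalling and contraction. DKK1, a secreted Wnt antagonist (chromosome 10, 54074041 to 54077417), was at 35.3 CPM in each WT library and at 5.61 and 5.98 CPM in Kashlid, 6.09-fold lower (-2.61 ± 0.12, adjusted p = 8.26e-13). MYLK3, a myosin light chain kinase (chromosome 16, 46736194 to 46782221), fell from 9.99 and 11.4 CPM to 1.68 and 1.58 CPM (-2.71 ± 0.22, adjusted p = 4.62e-09). NEXN, an actin filament protein of the Z-disc, fell from 24.3 and 25.7 CPM to 4.05 and 3.28 CPM (-2.77 ± 0.15, adjusted p = 8.12e-12). For all 3 the replicates lay close together and the groups far apart. THBS1, the matrix glycoprotein thrombospondin 1, fell from 84.8 and 83.8 CPM to 23 and 17 CPM (-2.07 ± 0.11, adjusted p = 9.78e-12). STC1, a secreted hormone, was at 44.9 and 56.6 CPM in WT and at 9.02 and 16.1 CPM in Kashlid (-2.02 ± 0.34, adjusted p = 6.31e-05), but DESeq2 did not call it (adjusted p = 0.133).

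Further decreases among the 20 largest were in the pseudogene TCAM1P (-3.68 ± 0.28), the katanin-like KATNAL2 (-3.12 ± 0.21), the neutrophil antigen CD177 (-2.97 ± 0.25), the transcription factor ATOH8 (-2.90 ± 0.23), the actin regulator MTSS1 (-2.55 ± 0.27), the membrane glycoprotein GPNMB (-2.47 ± 0.21) and the Notch-related protein DNER (-2.32 ± 0.16). The neurotrophin receptor NTRK2 (-2.19 ± 0.23), the NAD synthesis enzyme QPRT (-2.10 ± 0.18), VEPH1 (-2.10 ± 0.23) and the glycoprotein hormone subunit CGA (-1.94 ± 0.21) completed them, with adjusted p of at most 2.89e-07. Below 5 CPM, MMP16 and SEMA3A went from clear signal to 0 or 1 count. The membrane-anchored metalloprotease MMP16 had 256 counts over the WT libraries and 0 over the Kashlid libraries, at least 85.1-fold lower with a floor of 3 counts over the group. SEMA3A, a secreted guidance cue, had 225 counts in WT and 1 in Kashlid, a ratio of 224 (95% counting interval 39.9 to 8910).

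Interferon-stimulated genes were raised in Kashlid. Cells that sense viral nucleic acid secrete interferons, whose receptors signal through JAK kinases to a transcription factor complex that holds IRF9, and this complex binds the interferon-stimulated response element (ISRE) in front of antiviral genes. Of 57 tested interferon effectors, 33 rose, 9 fell and 15 did not pass, with a median log2 fold change of 0.43. The number called lay between 34 and 44 over all alternatives tried, the lowest under a filter that tests fewer genes. The promoters of 3 effectors that rose and, chosen after its values were seen, of IFIT5, which did not pass, are shown to set the ISRE beside the change. Capitals mark the ISRE core, TTTC, any 2 bases and TTTC, which reads GAAA, any 2 bases and GAAA where it lies on the other strand. They are from RefSeq on GRCh38.p14 and run from 250 bases before the gene start to 50 bases after it, 5′ to 3′ on the gene's plus strand.
IFI44L, chr1:78620198-78620497: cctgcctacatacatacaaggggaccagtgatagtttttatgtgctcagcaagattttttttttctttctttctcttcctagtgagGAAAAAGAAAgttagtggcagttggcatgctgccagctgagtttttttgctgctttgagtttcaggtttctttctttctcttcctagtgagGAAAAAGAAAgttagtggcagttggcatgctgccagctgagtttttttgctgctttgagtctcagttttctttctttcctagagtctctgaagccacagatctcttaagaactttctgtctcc
ISG15, chr1:1013247-1013546: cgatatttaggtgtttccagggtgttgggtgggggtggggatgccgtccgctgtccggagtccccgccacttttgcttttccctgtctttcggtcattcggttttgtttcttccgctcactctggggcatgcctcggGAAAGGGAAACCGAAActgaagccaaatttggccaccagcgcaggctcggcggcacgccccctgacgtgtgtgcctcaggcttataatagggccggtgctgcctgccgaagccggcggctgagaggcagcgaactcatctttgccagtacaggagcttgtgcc
IFIT1, chr10:89392373-89392672: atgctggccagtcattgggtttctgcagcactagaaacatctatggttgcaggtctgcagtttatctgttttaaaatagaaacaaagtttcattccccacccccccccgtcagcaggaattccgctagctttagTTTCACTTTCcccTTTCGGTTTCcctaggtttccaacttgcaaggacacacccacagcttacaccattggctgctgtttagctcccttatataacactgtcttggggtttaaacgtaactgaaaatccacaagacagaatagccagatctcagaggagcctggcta
IFIT5, chr10:89414318-89414617: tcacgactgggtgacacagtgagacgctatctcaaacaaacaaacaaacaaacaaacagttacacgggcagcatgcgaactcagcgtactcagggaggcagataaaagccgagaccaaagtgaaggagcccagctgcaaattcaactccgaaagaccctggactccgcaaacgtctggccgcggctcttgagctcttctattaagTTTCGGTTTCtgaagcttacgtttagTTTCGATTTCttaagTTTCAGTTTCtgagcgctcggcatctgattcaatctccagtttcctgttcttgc

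The core letters were found on either strand, overlaps allowed, in 996 of all 27305 promoters of the RefSeq table (3.65%). Among effectors matched to a promoter, they stood in 17 of 26 that rose (65.4%), in 4 of 5 that fell (80%) and in 8 of 13 that did not pass (61.5%). IFIT1 holds 2 matches and IFIT5, beside it on chromosome 10, holds 3. IFIT1 rose from 17.8 and 15.1 CPM to 78.8 and 81.7 CPM (2.29 ± 0.11, adjusted p = 1.27e-12), whereas IFIT5 was at 16.6 and 16.3 CPM in WT and at 20.7 and 15.8 CPM in Kashlid (0.15 ± 0.12, adjusted p = 0.341). The IFIT1 groups were far apart and the IFIT5 groups overlapped. A match is a run of letters and not evidence of a bound site.

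Among effectors that block RNA and translation, 7 of 13 rose and 2 fell. OAS2, an antiviral synthetase that double-stranded RNA activates (chromosome 12, 113416274 to 113449528), was at 2.68 and 1.42 CPM in WT and at 15.9 and 17.7 CPM in Kashlid, 8.21-fold higher (3.04 ± 0.20, adjusted p = 2.17e-10). OASL, its catalytically inactive relative and the most abundant effector among the strongly raised, rose from 43.3 and 45.3 CPM to 249 and 273 CPM (2.56 ± 0.07, adjusted p = 8.39e-16). IFIT2, which like IFIT1 binds foreign RNA, rose from 27.9 and 28.1 CPM to 120.5 and 121 CPM (2.11 ± 0.08, adjusted p = 2.89e-14). OASL and IFIT2 had tight replicates, whereas the WT libraries of OAS2 lay apart at a low level. None of the 3 genes overlapped between groups. Against them stood SLFN5, which fell from 64.2 and 63.2 CPM to 40.9 and 37.7 CPM (-0.70 ± 0.08, adjusted p = 2.83e-07).

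All 5 genes of the ISG15 pathway rose. ISG15, a ubiquitin-like modifier, was at 29.3 and 33.5 CPM in WT and at 158 and 182 CPM in Kashlid (2.43 ± 0.11, adjusted p = 8.26e-13). HERC5, its main ligase, rose from 25.2 and 25.7 CPM to 90.1 and 92.7 CPM (1.84 ± 0.07, adjusted p = 8.91e-14), and the related HERC6 rose from 14.6 and 18.6 CPM to 42.1 and 40.4 CPM (1.31 ± 0.11). The activating enzyme UBA7 (1.84 ± 0.73, adjusted p = 0.0451) and the conjugating enzyme UBE2L6 (1.77 ± 0.36, adjusted p = 0.000382) rose at under 3 CPM. USP18, which removes ISG15 and limits interferon receptor signalling, was at 9.27 and 11.3 CPM in WT and at 9.71 and 9.62 CPM in Kashlid (-0.09 ± 0.15, adjusted p = 0.642).

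Of the 12 tested blockers of entry, assembly and budding, 4 rose and 3 fell. RSAD2, which encodes viperin, rose from 2.44 CPM in each WT library to 10.1 and 9.15 CPM (1.97 ± 0.20, adjusted p = 1.06e-07), and MX2 rose from 0.297 and 0.17 CPM to 1.79 and 2.17 CPM (3.05 ± 0.51, adjusted p = 5.04e-05). BST2, the tether of budding virions, went the other way, from 343 and 340.1 CPM to 257 and 264 CPM (-0.39 ± 0.05, adjusted p = 7.38e-07). Of the 27 other induced genes 17 rose, led by IFI44L (2.79 and 2.67 CPM in WT, 16.1 and 20.3 CPM in Kashlid, 2.73 ± 0.20), IFI27 (2.46 ± 0.54) and TRANK1 (1.88 ± 0.12), and 4 fell, among them PARP12 (-0.73 ± 0.09). The adjusted p of these was at most 0.000859. Raised and lowered members thus stood side by side in 3 of the 4 classes.

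**Figure D2:**
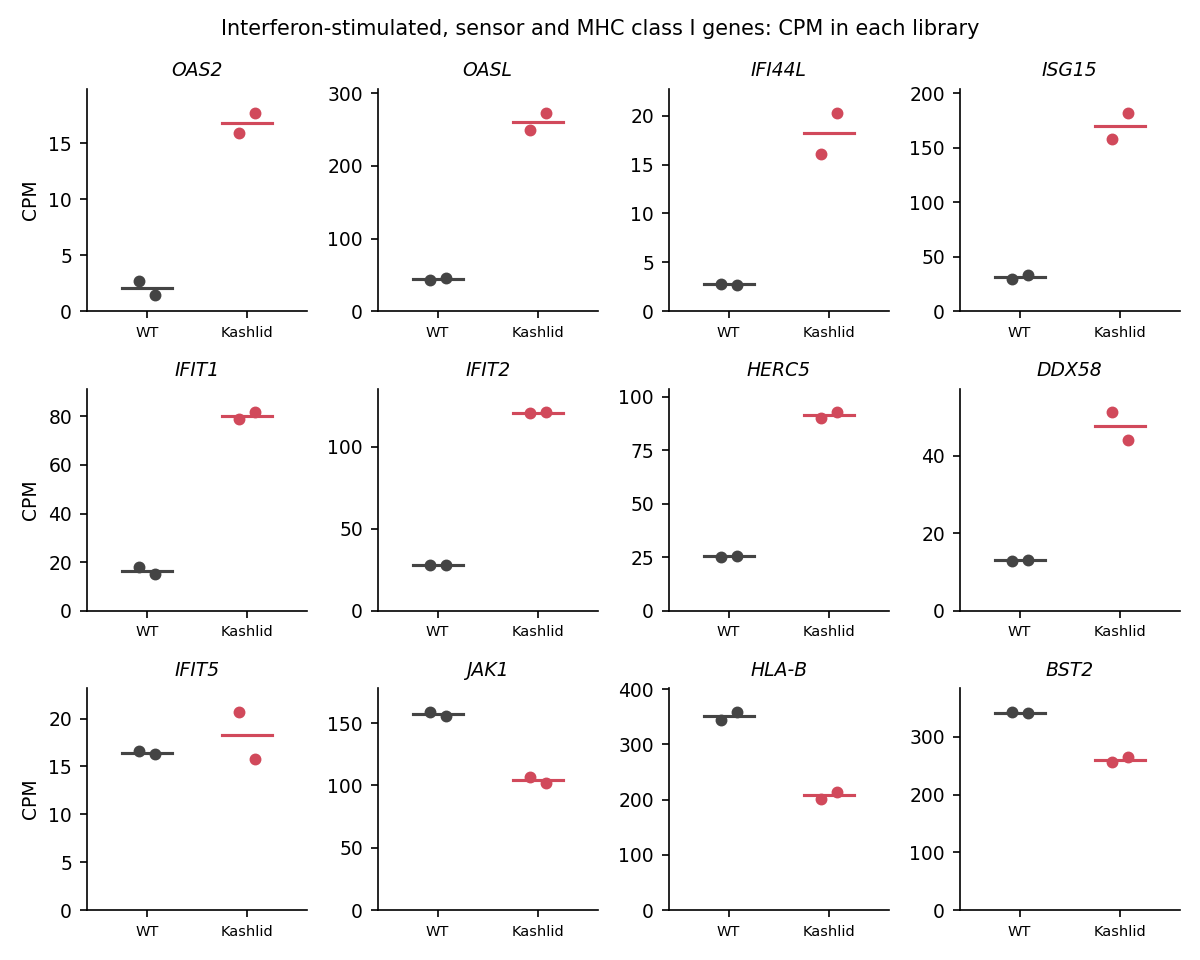
CPM in each of the 2 WT (grey) and 2 Kashlid (red) libraries, with a line at the mean of 2, for 12 genes of the interferon signalling and effector, sensor and MHC class I lists. Each axis starts at 0. OAS2 to DDX58 were higher in both Kashlid libraries, IFIT5 overlapped between groups, and JAK1, HLA-B and BST2 were lower in both.

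The genes that carry interferon signalling did not move as a group. Of 22 tested, 8 rose and 5 fell, with a median of 0.02. Of 6 interferon genes in the table, IFNE alone passed the filter, and IFNB1 had 0 and 7 counts in Kashlid and 0 and 2 in WT. Among the receptors 0 of 6 rose and 3 fell, with IFNAR1 at 89.8 and 87.1 CPM in WT and at 51.6 and 58 CPM in Kashlid (-0.69 ± 0.08, adjusted p = 3.89e-07), beside IFNAR2 and IFNGR2 (-0.37 each). All 3 lie in 1 window of 5 Mb on chromosome 21 whose median log2 fold change was -0.37, and with that median taken out IFNAR1 was at -0.32 (adjusted p = 0.00267). The kinase JAK1 fell from 159 and 156 CPM to 107 and 102 CPM (-0.59 ± 0.05, adjusted p = 2.61e-08), or -0.26 with the window median taken out. IRF1 (0.56 ± 0.13, adjusted p = 0.00109) and IRF9 (0.54 ± 0.14, adjusted p = 0.00346) rose, but IRF9 missed the threshold without Kashlid replicate 2 (adjusted p = 0.0612) and without WT replicate 2 (adjusted p = 0.0539). The inhibitors SOCS3 (0.67 ± 0.09, 0.34 with the window median taken out) and PIAS1 (0.49 ± 0.11) rose as well.

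Of 10 tested sensors of nucleic acid 5 rose and 0 fell, 3 of 6 for RNA and 2 of 4 for DNA. Of 5 kinases and regulators of these sensors RNF125 alone rose. DDX58, which encodes the RNA sensor RIG-I, was at 12.8 and 13.2 CPM in WT and at 51.2 and 44 CPM in Kashlid (1.87 ± 0.12, adjusted p = 6.75e-11). IFIH1, which encodes MDA5, rose from 6.78 and 8.12 CPM to 18.6 and 20.8 CPM (1.40 ± 0.13, adjusted p = 3.74e-08), and the DNA sensor IFI16 rose from 85.3 CPM in each WT library to 148 and 145 CPM (0.78 ± 0.06, adjusted p = 5.05e-10). DHX58 was called at 1.27 ± 0.46 (adjusted p = 0.0295), but DESeq2 and the fits without WT replicate 2 or Kashlid replicate 2 did not call it (adjusted p between 0.0983 and 0.254). MB21D1, which encodes cGAS, was called at 0.34 ± 0.10 (adjusted p = 0.0111), and its value was 0.00 once the median change of its 5 Mb chromosome window was taken out. The call was also lost without WT replicate 1 (adjusted p = 0.0532) or 2 (adjusted p = 0.0565).

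MHC class I genes, which present peptides to T cells and are themselves inducible by interferon, were lower in most cases. Of 21 tested, 4 rose and 12 fell, with a median of -0.15. Of 6 class I chains 5 fell. HLA-B, a classical class I chain (chromosome 6, 31321649 to 31324989), was at 344 and 359 CPM in WT and at 202 and 214 CPM in Kashlid (-0.76 ± 0.05, adjusted p = 4.57e-10). HLA-F fell from 7.91 and 8.29 CPM to 3.93 and 3.23 CPM (-1.18 ± 0.20, adjusted p = 5.16e-05), and HLA-C fell from 421 and 422 CPM to 347 and 356 CPM (-0.26 ± 0.05, adjusted p = 0.000288). Reads of these related chains may be shared between them. The trimming enzyme ERAP2 rose (0.85 ± 0.27, adjusted p = 0.0134, but adjusted p = 0.15 without WT replicate 1), ERAP1 fell (-0.27 ± 0.09, adjusted p = 0.0222) and the immunoproteasome subunit PSMB9 fell (-0.59 ± 0.17, adjusted p = 0.00913). ERAP1 and PSMB9 were each lost in at least 2 of the alternatives. The 16 calls of this list went down to 9 without Kashlid replicate 1 and to 10 without WT replicate 1 or WT replicate 2.

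Inflammatory genes were raised in part. Of 29 tested genes of the NF-kB pathway and its cytokines, 15 rose and 3 fell, with a median of 0.30. The T-cell chemokine CCL5 rose from 15.5 and 17.3 CPM to 42.8 and 44.8 CPM (1.42 ± 0.11, adjusted p = 3.97e-09). The interferon-inducible chemokines CXCL10 (0.535 and 0.398 CPM in WT, 2.66 and 2.05 CPM in Kashlid, 2.32 ± 0.46, adjusted p = 0.000343) and CXCL11 (1.94 ± 0.35, adjusted p = 0.000147) rose at low levels. CXCL8, a neutrophil chemokine, was at 11.6 and 11.5 CPM in WT and at 61.1 and 15.5 CPM in Kashlid (1.73 ± 0.35, adjusted p = 0.000458). Replicate 1 carries most of that change, and without it the value was 0.43 (adjusted p = 0.058). IL6 showed the same split, at 6.72 and 7.33 CPM in WT and at 33.2 and 9.38 CPM in Kashlid. The 3 that fell were CXCL16 (-1.42 ± 0.20), CSF1 (-0.83 ± 0.20) and TNFAIP3, the NF-kB inhibitor A20, which was at 109 and 116 CPM in WT and at 65.7 and 37.8 CPM in Kashlid (-1.12 ± 0.14, adjusted p = 1.78e-06).

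In the prostaglandin pathway 5 of 14 genes rose and 4 fell. Besides PTGS2, the constitutive cyclooxygenase PTGS1 rose from 18.8 and 26 CPM to 58.7 and 58.8 CPM (1.39 ± 0.10, adjusted p = 5.82e-10), and the prostaglandin F receptor PTGFR rose from 2.26 and 2.67 CPM to 5.15 and 6.86 CPM (1.28 ± 0.24, adjusted p = 0.000163). TBXAS1, thromboxane synthase, fell from 2.38 and 2.67 CPM to 0.173 and 0.469 CPM (-2.95 ± 0.53, adjusted p = 0.000129). Both cyclooxygenases were thus higher and the thromboxane enzyme lower.

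Genes of the LINC complex and the lamina moved in both directions. Of 26 tested, SUN2 included, 5 rose and 9 fell, with a median of -0.09. Among the nesprins, SYNE3, which links to intermediate filaments through plectin, rose from 1.78 and 1.19 CPM to 6.42 and 5.46 CPM (2.0 ± 0.26, adjusted p = 2.34e-06). SYNE2, which encodes Nesprin-2, was at 106 and 107 CPM in WT and at 137 and 134 CPM in Kashlid (0.34 ± 0.06, adjusted p = 6.13e-05), and SYNE1 was at 39.9 and 45.7 CPM in WT and at 48.1 and 37.4 CPM in Kashlid (adjusted p = 0.992). SUN1, the paralog of SUN2, fell from 123 and 139 CPM to 112 and 114 CPM (-0.22 ± 0.07, adjusted p = 0.00942), in a window with a median of -0.40. LMNA, which encodes lamins A and C, fell from 597 and 587 CPM to 459 and 503 CPM (-0.30 ± 0.05, adjusted p = 3.48e-05), as did TMEM201, which encodes Samp1 (-0.54 ± 0.09), and the lamin methyltransferase ICMT (-0.40 ± 0.05). Of 28 nuclear pore genes 7 rose and 9 fell, with values between -0.51 and 0.27, led by NUP205 (-0.51 ± 0.05), NDC1 (-0.34 ± 0.06), NUP35 (-0.31 ± 0.09) and NUP210 (0.27 ± 0.04). NUP205 went to -0.04 (adjusted p = 0.553) with the window median taken out. The 16 calls of the pore list went down to 8 without WT replicate 1, 9 without WT replicate 2 and 10 with the window medians taken out.

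Genes of the contractile cytoskeleton were mostly lower. Of 39 tested actins, myosin II genes and targets of the actin-regulated factor SRF, 4 rose and 29 fell, with a median of -0.28. In the myosin II class 10 of 11 fell and 0 rose. MYL9, a regulatory light chain of myosin II, was at 60 and 59.3 CPM in WT and at 20.8 and 22.5 CPM in Kashlid (-1.46 ± 0.09, adjusted p = 4.49e-11). MYLK3 and NEXN fell more, as given above, and the cardiac actin ACTC1 fell from 1.49 and 1.65 CPM to 0.0578 and 0.293 CPM (-3.11 ± 0.59, adjusted p = 0.000224). ACTB, the main cytoplasmic actin, fell from 4489 and 4407 CPM to 3329 and 3541 CPM (-0.37 ± 0.04, adjusted p = 2.92e-07). The replicates of ACTB and MYL9 did not overlap between groups. Tubulins fell too, 9 of 10, with a median of -0.44, among them TUBB2A (-1.01 ± 0.10), TUBB2B (-0.95 ± 0.17) and TUBB3 (-0.80 ± 0.09). Of 14 motor genes and adaptors, 2 rose and 4 fell, with the kinesin heavy chain KIF5B, which walks cargo to microtubule plus ends, at 278 and 273 CPM in WT and at 165 and 168 CPM in Kashlid (-0.73 ± 0.05, adjusted p = 2.28e-10).

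Adhesion genes were lower as well. Of 33 tested integrins and focal adhesion genes 3 rose and 21 fell, with a median of -0.30. ITGB1, the shared beta 1 chain of many matrix receptors (chromosome 10, 33189246 to 33224486), was at 917 and 945 CPM in WT and at 483 and 452 CPM in Kashlid (-0.99 ± 0.05, adjusted p = 9.88e-13). ITGA1, which pairs with it to bind collagen, fell from 243 and 257 CPM to 96.8 and 93 CPM (-1.40 ± 0.06, adjusted p = 1.69e-13). The caveola protein CAV1 (89.2 and 93.9 CPM in WT, 48 and 51.3 CPM in Kashlid, -0.88 ± 0.07) and the adaptor BCAR1 (-0.77 ± 0.07) fell (adjusted p of at most 1.91e-08). All 4 were lower in each Kashlid library than in each WT library. Of 21 targets of YAP and TAZ, the coactivators of the Hippo pathway, 3 rose and 10 fell. CTGF (-1.35 ± 0.26), AMOTL1 (-0.94 ± 0.11) and CYR61 (41.2 and 39 CPM in WT, 26.4 and 18.7 CPM in Kashlid, -0.83 ± 0.12) fell, and LHFP rose (1.78 ± 0.23), with adjusted p of at most 0.000226.

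The matrix list was mixed. Of 52 tested genes 15 rose and 25 fell, with a median of -0.18. COL5A3 rose as given above, and COL8A1, a short-chain collagen, rose from 1.72 and 1.31 CPM to 6.07 and 5.81 CPM (1.97 ± 0.25, adjusted p = 2.54e-06). COL13A1, a transmembrane collagen, had 2 counts in WT and 35 in Kashlid, a ratio of 17.5 (95% counting interval 4.51 to 151). Of 13 cross-linking and folding enzymes for collagen 1 rose and 8 fell. Among 29 matrix proteases and their inhibitors 7 rose and 9 fell. ADAM8 rose (1.29 ± 0.20), SERPINE2, an inhibitor of thrombin and plasminogen activators, fell from 252 and 262 CPM to 124 and 121 CPM (-1.07 ± 0.07), and ADAM12 was called higher (0.92 ± 0.11), with adjusted p of at most 3.09e-05. ADAM12 lost its call with the window median taken out (0.16, adjusted p = 0.296).

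More epithelial genes rose than fell, and more mesenchymal genes fell than rose. Of 31 tested epithelial genes 18 rose and 5 fell, with a median of 0.43, and of 22 mesenchymal genes 1 rose and 12 fell, with a median of -0.30. CLDN7, a tight junction claudin, rose from 8.86 and 11.1 CPM to 37.9 and 34.9 CPM (1.87 ± 0.12, adjusted p = 1.13e-10). SPINT1, an inhibitor of matriptase, rose from 3.92 and 5.79 CPM to 17.4 and 15.9 CPM (1.77 ± 0.17, adjusted p = 5.21e-08), and the basal keratin KRT15 rose as well (1.35 ± 0.27, adjusted p = 0.000359). CDH1, which encodes E-cadherin, stayed near the lower end of measurement, at 0.594 and 0.568 CPM in WT and at 1.68 and 1.23 CPM in Kashlid (1.31 ± 0.47, adjusted p = 0.0263), and 4 alternatives, DESeq2 among them, did not call it. PDGFRB, the PDGF receptor of mesenchymal cells, fell from 16.1 and 18.2 CPM to 4.34 and 4.81 CPM (-1.90 ± 0.15, adjusted p = 3.06e-09). The protease FAP (-1.54 ± 0.15) and the matrix protein TGFBI (199 and 232 CPM in WT, 88.6 and 101 CPM in Kashlid, -1.18 ± 0.07) fell (adjusted p of at most 3.38e-08). The member that rose was NRP2, a receptor for semaphorins and VEGF-C, from 11.9 and 13.2 CPM to 54 and 50.6 CPM (2.06 ± 0.09, adjusted p = 2.76e-13). VIM, which encodes vimentin, was called lower (-0.43 ± 0.05) and stood at 0.01 (adjusted p = 0.913) with its window median taken out. The luminal markers rose in 5 of 11 tested and fell in 2, with AGR2 at 0.416 and 0.739 CPM in WT and at 3.01 and 3.99 CPM in Kashlid (2.58 ± 0.38), and their summed level was 1657 and 1609 CPM in WT and 1738 and 1919 CPM in Kashlid. The part of luminal cells in the epithelial change was not tested.

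**Figure D3:**
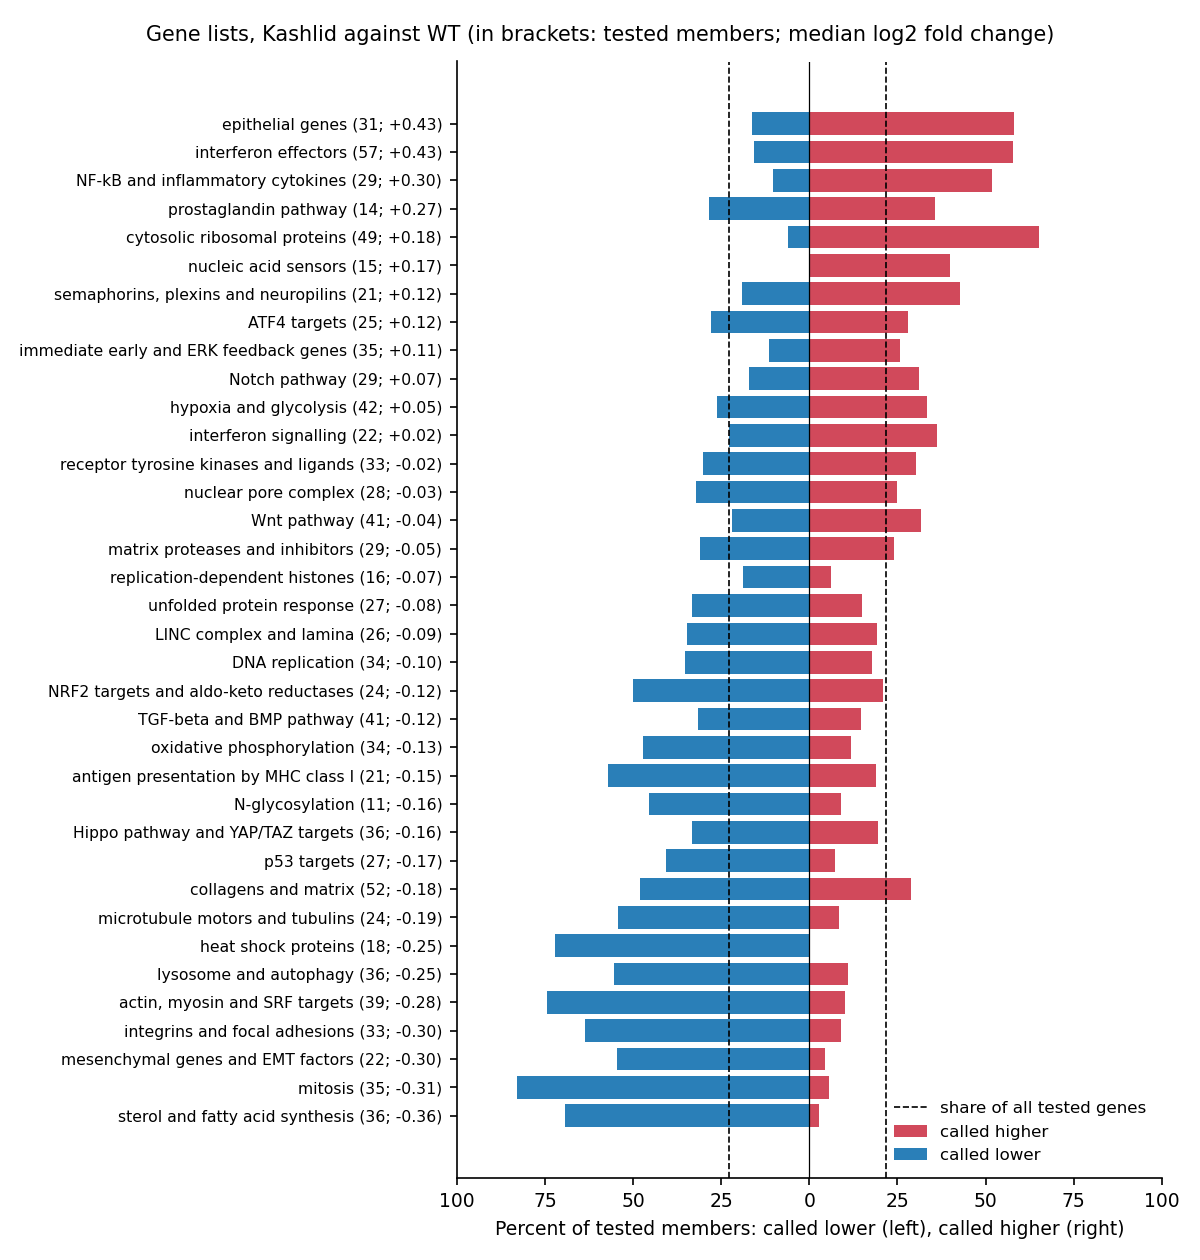
Bars give the percent of the tested members of each gene list called higher (red, right) or lower (blue, left) in Kashlid against WT, and the dashed lines give the same shares of all tested genes (21.7% and 22.7%). In brackets stand the number of tested members and their median log2 fold change, from 0.43 for epithelial genes and interferon effectors to -0.36 for sterol and fatty acid synthesis.

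Signalling pathways changed member by member. In the Notch pathway 9 of 29 genes rose and 5 fell, with the receptor NOTCH3 and the ligand-like DNER at the ends of the range. The target HEY1 fell from 17.4 and 19 CPM to 9.14 and 9.15 CPM (-0.99 ± 0.14, adjusted p = 8.87e-06), and RFNG, a glycosyltransferase that modifies Notch, rose (0.84 ± 0.13, adjusted p = 1.86e-05). In the Wnt pathway 13 of 41 rose and 9 fell, a total that went from 22 to 13 without WT replicate 1. Besides DKK1, the Wnt receptor ROR2 fell from 26.5 and 24.4 CPM to 6.42 and 6.86 CPM (-1.94 ± 0.13, adjusted p = 2.01e-10), and NKD2 (2.87 ± 0.62) and TCF7L1 (2.74 ± 0.76) rose at about 1 CPM or less.

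In the TGF-beta and BMP pathway 6 of 41 genes rose and 13 fell, and among its inhibitors and targets 7 of 13 fell and 1 rose. ID2, a target of BMP signalling that blocks helix-loop-helix factors, fell from 7.55 and 8.35 CPM to 1.21 and 0.997 CPM (-2.84 ± 0.25, adjusted p = 9.9e-09). ID3, of the same family, fell from 278 and 264 CPM to 111 and 99 CPM (-1.37 ± 0.06, adjusted p = 2.76e-13). The extracellular BMP antagonists went opposite ways: GREM1 fell from 21.2 and 21.4 CPM to 8.9 and 7.86 CPM (-1.34 ± 0.13, adjusted p = 2.96e-08), and NOG rose from 1.25 and 1.59 CPM to 3.93 and 3.64 CPM (1.41 ± 0.26, adjusted p = 0.000178). Outside the naming rule, ID1 (-1.12 ± 0.05), BMP2 (-1.25 ± 0.10), SMAD6 (-1.31 ± 0.12) and SMAD7 (-1.0 ± 0.12) fell with them (adjusted p of at most 1.06e-06), chosen after their values were seen.

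Receptor tyrosine kinases and their ligands split evenly, with 10 of 33 higher and 10 lower. The ephrin receptor EPHB2 rose from 11.9 and 12.8 CPM to 32.1 and 29.6 CPM (1.32 ± 0.10, adjusted p = 1.86e-09), and the collagen receptor DDR2 fell (-1.54 ± 0.24, adjusted p = 2.65e-05). Of 35 immediate early and ERK feedback genes 9 rose and 4 fell, 8 in all in DESeq2. MYC rose from 275 and 270 CPM to 624 and 530.4 CPM (1.08 ± 0.06, adjusted p = 1.75e-11), the phosphatase DUSP5 rose from 6.66 and 8.12 CPM to 26.1 and 14.8 CPM (1.47 ± 0.21, adjusted p = 1.17e-05), and IER3 rose from 118 and 134 CPM to 256 and 205 CPM (0.87 ± 0.08, adjusted p = 4.01e-08). All 3, like EGR1, were higher in Kashlid replicate 1 than in replicate 2. Among 21 semaphorins, plexins and neuropilins 9 rose and 4 fell. SEMA6B rose (0.86 ± 0.12, adjusted p = 4.24e-06), and SEMA3C fell from 71 and 71.2 CPM to 36.4 and 40.2 CPM (-0.89 ± 0.07, adjusted p = 4.03e-09).

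Genes of cholesterol synthesis were lower together. Of 20 sterol enzymes 17 fell and 0 rose, with a median of -0.47, and in the whole list of sterol and fatty acid synthesis 25 of 36 fell and 1 rose, the fatty acid synthase FASN (0.29 ± 0.05, adjusted p = 0.000236), whose window had a median of 0.40. SQLE, squalene epoxidase, a rate-limiting step, was at 61.9 and 62.3 CPM in WT and at 20.8 and 23.2 CPM in Kashlid (-1.50 ± 0.10, adjusted p = 2.01e-10). IDI1, the isopentenyl isomerase, fell from 60 and 58.7 CPM to 21.5 and 26 CPM (-1.32 ± 0.09, adjusted p = 3.48e-10). LSS (-1.22 ± 0.08) and MSMO1 (-1.17 ± 0.08) fell by a like amount. The groups did not overlap in any of these 4 genes.

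Mitosis genes fell by small amounts and with few exceptions. Of 35 tested 29 fell and 2 rose, with a median of -0.31. PRC1, which bundles the spindle midzone, was at 247 and 249 CPM in WT and at 148 CPM in each Kashlid library (-0.74 ± 0.05, adjusted p = 2.17e-10). CCNA2, cyclin A2, fell from 118 and 126 CPM to 75.2 and 77.5 CPM (-0.67 ± 0.06, adjusted p = 2.19e-08), and the kinesin KIF20A fell from 146 and 138 CPM to 89.6 and 99 CPM (-0.59 ± 0.06, adjusted p = 1.03e-07). The 2 that rose were the checkpoint protein BUB3, from 189 and 197 CPM to 285 and 298 CPM (0.59 ± 0.05, adjusted p = 3.71e-09, but 0.15 with the window median taken out), and the proliferation marker MKI67 (0.15 ± 0.04, adjusted p = 0.0079). Of 34 DNA replication genes 6 rose and 12 fell, led by GINS1 (-0.86 ± 0.09) and GINS4 (-0.60 ± 0.07) of the replicative helicase, MCM10 (-0.52 ± 0.08) and ORC6 (-0.46 ± 0.08). MCM10 lies in a shifted window of chromosome 10 and stood at 0.05 (adjusted p = 0.648) with that median taken out. Fewer dividing cells and less RNA of these genes per cell cannot be told apart in bulk libraries.

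**Figure D4:**
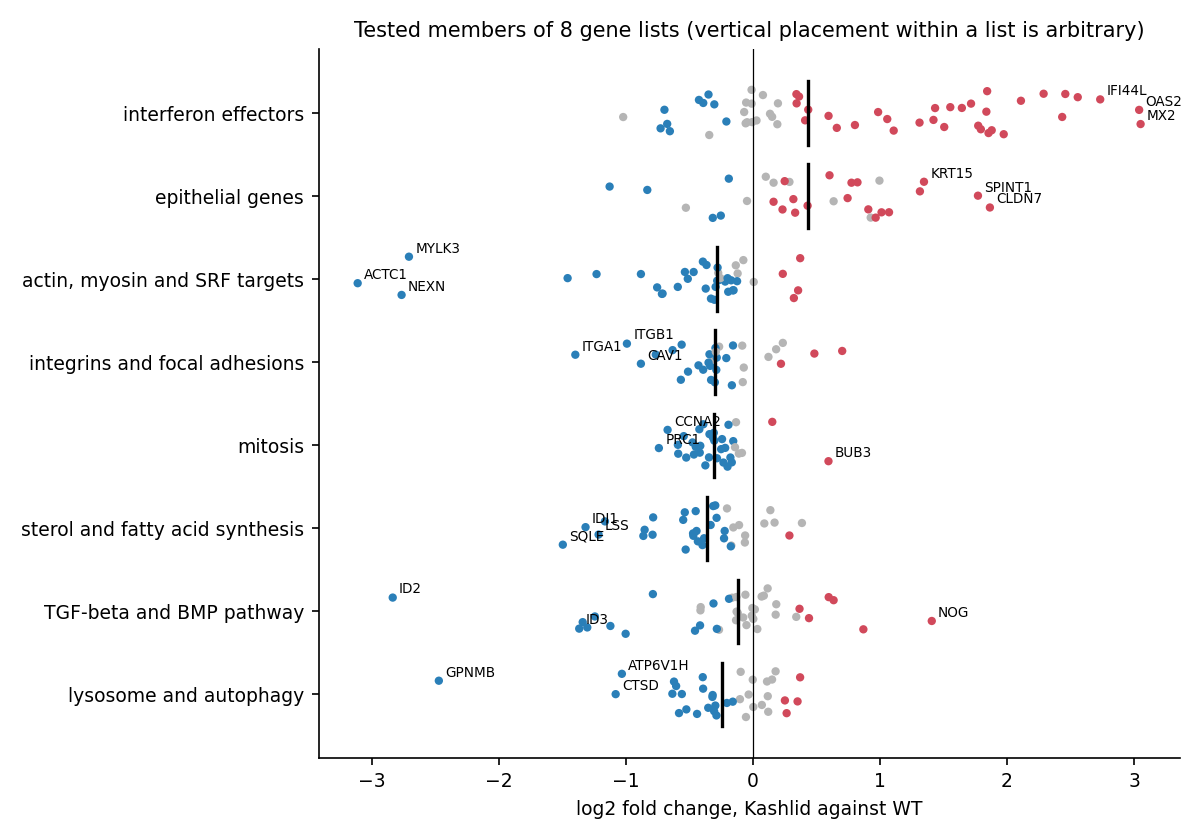
Each point is a tested member of 1 of 8 gene lists, by its log2 fold change in Kashlid against WT. Red points were called higher, blue lower and grey neither, and black bars are list medians. Interferon effectors reach from -1.02 to 3.05, whereas mitosis genes lie between -0.74 and 0.59.

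Of 22 lysosomal hydrolases and membrane proteins 2 rose and 16 fell, with a median of -0.34, whereas of 14 autophagy genes 2 rose and 4 fell, with a median of 0.09. In both together 4 of 36 rose and 20 fell. The protease CTSD was at 854 and 848 CPM in WT and at 389.7 and 414 CPM in Kashlid (-1.08 ± 0.04, adjusted p = 8.91e-14). The proton pump subunit ATP6V1H (-1.03 ± 0.11) and the autophagosome protein MAP1LC3B (-0.64 ± 0.08) fell as well. Of 18 heat shock genes 13 fell and 0 rose, but only 7 were called in DESeq2 and 6 without Kashlid replicate 1 or without WT replicate 1. HSPB8, a small chaperone of actin-rich structures, fell from 79.5 and 75.1 CPM to 29.6 and 32.8 CPM (-1.31 ± 0.09, adjusted p = 2.41e-10), followed by HSPA4L (-0.68 ± 0.07), DNAJA1 (-0.53 ± 0.06) and DNAJB1 (-0.40 ± 0.07). Among 27 p53 targets 2 rose and 11 fell. The stress cytokine GDF15 fell from 64.5 and 73.1 CPM to 27.8 and 16.4 CPM (-1.64 ± 0.14, adjusted p = 7.95e-09), with RRM2B (-0.60 ± 0.08) and TP53INP1 (-0.58 ± 0.14). The decoy receptor TNFRSF10C had 21 counts in WT and 3 in Kashlid, a ratio of 6.98 (95% counting interval 2.09 to 36.6), and its call was lost in several alternatives.

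Of 24 NRF2 targets and aldo-keto reductases 5 rose and 12 fell. AKR1B1, aldose reductase, fell from 596 and 605 CPM to 256 and 239.9 CPM (-1.28 ± 0.05, adjusted p = 3.43e-14), and OSGIN1 fell (-0.95 ± 0.18), whereas AKR1C1 rose from 4.4 and 4.03 CPM to 11 and 12.4 CPM (1.48 ± 0.16, adjusted p = 2.07e-07) beside its paralog AKR1C2. Of 27 genes of the unfolded protein response 4 rose and 9 fell. The sensor kinase ERN1 was at 8.74 and 8.58 CPM in WT and at 25.3 and 10.6 CPM in Kashlid (1.05 ± 0.24, adjusted p = 0.00132), and without Kashlid replicate 1 it was at 0.29 (adjusted p = 0.178). The chaperones HSP90B1 (1502 and 1481 CPM in WT, 1115 and 1172 CPM in Kashlid, -0.38 ± 0.04) and DNAJC3 (-0.51 ± 0.06) and the translocon subunit SEC61B (-0.45 ± 0.07) fell (adjusted p of at most 3.13e-05). Targets of ATF4, which answers amino acid shortage, split 7 higher and 7 lower of 25. DDIT4, an inhibitor of mTORC1, rose from 584 and 631 CPM to 1221 and 1053 CPM (0.90 ± 0.06), and the amino acid transporter subunits SLC7A5 (2100.1 and 2092 CPM in WT, 1359.8 and 1124 CPM in Kashlid, -0.75 ± 0.06) and SLC3A2 (-0.79 ± 0.08) and the factor ATF5 (-0.91 ± 0.14) fell, with adjusted p of at most 1.52e-05.

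Ribosomal protein genes were slightly higher. Of 49 tested 32 rose and 3 fell, with a median of 0.18, and their summed level was 38624 and 38230.3 CPM in WT and 42781 and 43495 CPM in Kashlid. The largest changes were in RPL13A (31.9 and 37.3 CPM in WT, 62.8 and 64.2 CPM in Kashlid, 0.88 ± 0.08), RPS18 (0.53 ± 0.04), RPL38 (0.52 ± 0.05) and RPS13 (0.48 ± 0.05), with adjusted p of at most 9.88e-08. Processed pseudogenes may share reads with these genes. In oxidative phosphorylation 4 of 34 rose and 16 fell, with complex II subunits SDHC (137 and 133 CPM in WT, 87.2 and 83.2 CPM in Kashlid, -0.67 ± 0.06) and SDHA (-0.56 ± 0.04) and the ATP synthase subunit ATP5A1 (-0.39 ± 0.04) in front (adjusted p of at most 3.82e-07). Of 42 hypoxia and glycolysis genes 14 rose and 11 fell. The carbonic anhydrase CA12 rose from 4.93 and 5.23 CPM to 17.6 and 22.5 CPM (1.98 ± 0.17, adjusted p = 6.67e-09), with the MYC antagonist MXI1 (1.28 ± 0.10) and the neuronal enolase ENO2 (0.81 ± 0.16). In N-glycosylation 5 of 11 subunits fell and 1 rose, with TUSC3 far below OSTC (-0.53 ± 0.06) and RPN2 (-0.51 ± 0.04). MAGT1, the alternative to TUSC3 in the complex, was at 133 and 137 CPM in WT and at 132 and 127 CPM in Kashlid (-0.06 ± 0.05, adjusted p = 0.375).

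Part of the change followed chromosome position. Of 342 windows of 5 Mb with at least 15 tested genes, 17 had a median log2 fold change above 0.3 and 28 below -0.3. Taking the window medians out kept 73.2% of the 6232 calls. Of values given above, it moved these by over 1.5 times with the call kept: HLA-C to -0.44, ICMT to -0.24, RFNG to 0.44, DNAJC3 to -0.17, SLC7A5 to -0.49, SDHA to -0.25 and GINS4 to -0.26. PRC1 went to -0.40, CCNA2 to -0.41, RRM2B to -0.35, MAP1LC3B to -0.37, RPN2 to -0.27, RPL38 to 0.24 and ACTB to -0.22 in the same way. Whether copy number differs between the lines was not tested.

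Kashlid was then set against the mean of SUN2KO and LBD, to show where it differs from the other modified lines. Here 1487 genes differed (10.6% of those tested), 731 higher (5.22%) and 756 lower (5.39%). DESeq2 called 972, and the count was 803 without SUN2KO replicate 1 and 965 without LBD replicate 1. Taken line by line, 2529 genes differed from SUN2KO (18% of those tested, 8.92% higher and 9.13% lower in Kashlid) and 408 from LBD (2.91%, 1.28% higher and 1.63% lower). For the contrast with the mean of SUN2KO and LBD, scaling by library size alone gave 901 higher and 600 lower. Both contrasts by line share the Kashlid libraries, and the mean mixes a line near Kashlid with one further from it, so values are given by line.

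OAS2 was at 0.595 and 0.752 CPM in SUN2KO, 15.9 and 17.7 CPM in Kashlid and 17.3 and 19.4 CPM in LBD. Its level in Kashlid exceeded that in SUN2KO by 4.63 ± 0.24 (adjusted p = 1.36e-11) and differed from LBD by -0.13 ± 0.15 (adjusted p = 0.733). RSAD2 was at 0.216 and 0.322 CPM in SUN2KO, 10.1 and 9.15 CPM in Kashlid and 8.44 and 7.89 CPM in LBD, and Kashlid exceeded LBD by 0.23 ± 0.17 (adjusted p = 0.539). Both truncation lines were thus above WT and SUN2KO below it in these 2 genes. In the effector list 27 of 57 were higher in Kashlid than in SUN2KO and 3 lower, and against LBD 0 were higher and 4 lower. STC1 was at 0.162 and 1.02 CPM in SUN2KO and at 3.53 and 18.8 CPM in LBD. Kashlid, below WT, lay above the mean of the others by 2.28 (adjusted p = 0.0024). By line it lay above SUN2KO by 4.38 ± 0.66 (adjusted p = 6.75e-05). It did not pass against LBD (0.18 ± 0.39, adjusted p = 0.874), whose 2 libraries lie on either side of the Kashlid values. RPPH1 and RMRP were also among the 5 highest, through the same Kashlid library as above. In LBD they too were higher in replicate 2, RPPH1 at 0.231 and 10.2 CPM and RMRP at 0.463 and 10.8 CPM. Kashlid did not pass against LBD for either (adjusted p = 0.23 and 0.384).

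The 5 largest differences below the mean of the other lines were in PZP, DKK1, MYLK3, ALPP and WISP2. DKK1 was at 34.3 and 39.8 CPM in SUN2KO, at 10 and 11.1 CPM in LBD and at 5.61 and 5.98 CPM in Kashlid, below SUN2KO by -2.68 ± 0.12 (adjusted p = 1.06e-12) and below LBD by -0.86 ± 0.14 (adjusted p = 0.00156). ALPP, placental alkaline phosphatase (chromosome 2, 233243348 to 233247599), was at 207 and 186 CPM in WT, 261 and 244 CPM in SUN2KO, 77.3 and 77.4 CPM in LBD and 53.7 and 52.4 CPM in Kashlid. It was 3.7-fold below WT (-1.89 ± 0.06, adjusted p = 7.65e-15) and below LBD by -0.54 ± 0.07 (adjusted p = 0.000143). WISP2, a matricellular protein, was at 76.4 and 86.4 CPM in WT, 124 and 134 CPM in SUN2KO, 34.2 and 40.8 CPM in LBD and 30.1 and 27.6 CPM in Kashlid, below LBD by -0.38 ± 0.09 (adjusted p = 0.0273). DKK1, ALPP and WISP2 were thus lowest in Kashlid of all 4 groups, with no overlap.

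MYLK3 was at 18.6 and 18.5 CPM in SUN2KO and at 2.08 and 1.02 CPM in LBD, and Kashlid did not pass against LBD (0.07 ± 0.31, adjusted p = 0.943). Kashlid did not pass against LBD for PZP either (0.40 ± 0.61, adjusted p = 0.804). PZP, a protease inhibitor, was at 6.66 and 3.01 CPM in WT, 14.4 and 15.4 CPM in SUN2KO, 0.521 and 0.359 CPM in LBD and 0.463 and 0.704 CPM in Kashlid. Its difference from the mean of the others (-2.13, adjusted p = 0.0043) was lost without LBD replicate 1 (adjusted p = 0.0625). EGR1 had another order, at 25.4 and 21.8 CPM in SUN2KO and at 10.1 CPM in each LBD library. Kashlid was above LBD by 1.33 ± 0.19 (adjusted p = 0.000613) and differed from SUN2KO by 0.11 ± 0.17 (adjusted p = 0.733).

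Over all tested genes 18% passed against SUN2KO (8.92% higher, 9.13% lower) and 2.91% against LBD (1.28% higher, 1.63% lower). As over all genes, more members passed against SUN2KO than against LBD in each list that follows except the ribosomal proteins. Of 35 mitosis genes 23 were lower in Kashlid than in SUN2KO and 8 lower than in LBD, and of 39 genes of the actin and myosin list 24 and 5. Of 18 heat shock genes 11 were lower than in SUN2KO and 6 lower than in LBD, and of 24 NRF2 targets 14 and 7. Genes of the unfolded protein response were higher than in SUN2KO in 17 of 27, and against LBD 0 were higher and 1 lower. Of 29 genes of the NF-kB list 10 were higher than in SUN2KO, and against LBD 0 were higher and 1 lower. Ribosomal proteins went the other way, with 3 of 49 higher than in SUN2KO and 23 higher than in LBD. KIF20A, at 146 and 138 CPM in WT and at 89.6 and 99 CPM in Kashlid, was at 134 and 130.5 CPM in SUN2KO and at 119 and 116 CPM in LBD, and Kashlid differed from LBD by -0.31 ± 0.06 (adjusted p = 0.006).

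**Figure D5:**
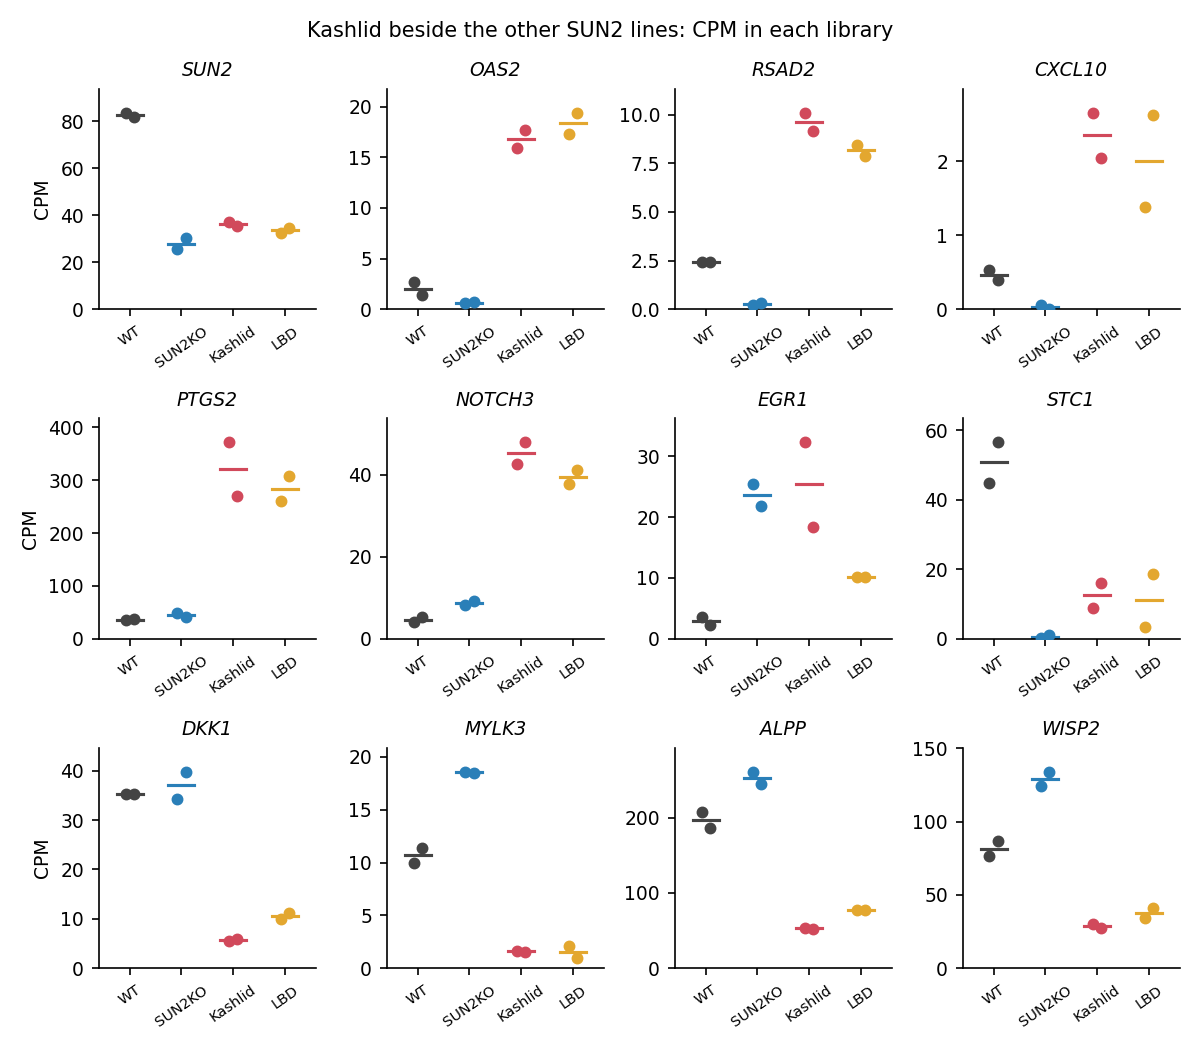
CPM in each of the 8 libraries for 12 genes, with a line at the mean of the 2 libraries of a line and each axis starting at 0. OAS2, RSAD2, CXCL10, PTGS2 and NOTCH3 were high in Kashlid and LBD, and MYLK3, ALPP and WISP2 were low in both and highest in SUN2KO.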

How the data were processed

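How RNA was selected, and the gene annotation and strand setting used for counting, stand in none of the sources used here. The deposited file holds whole-number read counts per gene for all 8 libraries, and per the submitters' processing notes reads were handled with Trim Galore, STAR 2.7.1a, bedtools 2.24.0, HTSeq and DESeq2 on hg19. The authors' deposited comparison table holds log2 fold changes and p-values, with which the calls were compared. It has 12 columns of per-sample values that were not used.

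From the counts, edgeR 4.0.16 in R 4.3.3 was run with TMM factors and filterByExpr on all 8 libraries, 1 term per group, which leaves 4 residual degrees of freedom. Quasi-likelihood tests of Kashlid against WT, and against the mean of SUN2KO and LBD, SUN2KO alone and LBD alone, were adjusted by Benjamini-Hochberg over 14016 genes, with a threshold of 0.05. "Rose", "fell", "higher" and "lower" of counted genes refer to that threshold. The procedure was run on simulated counts of 13584 genes, of which 200 were changed by 1.5-fold or 2-fold. There edgeR made 205 calls, 12 of them false. Far fewer genes changed in that simulation than were called here, so it does not give the error rate of the present calls. CPM are scaled by the TMM factors. Alternatives were median-ratio factors, library size alone, DESeq2 1.42.0, other filters, only 4 libraries, window medians as offsets, a replicate block and leaving out each library.

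The members and the 42 gene lists were chosen with earlier results of these data known. Named genes are SUN2, the 20 largest changes each way at a mean of at least 5 CPM (loci without a product name left out), the 5 largest each way against the other lines, and up to 4 called members per list by size (10 for interferon effectors, 6 for the other interferon, sensor and antigen lists). Others, such as HERC5, IFIT5, BST2, SUN1, LMNA, TNFAIP3, CCL5, MAGT1 or FASN, were named after their values were seen. Genes at 0 counts in a group lie beyond their list's median on any bound, so medians do not depend on it. Some genes are not reported here. Sequences came from the RefSeq table of promoters on GRCh38.p14, matched by symbol, while positions of genes are those of the files on hg19. With 2 libraries a group, precision is set by the spread shared across the 4 groups, and counting intervals (95%, exact) cover counting error only.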

Additional observations from a re-analysis of the deposited data

How the results depend on the processing

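The count of genes that differ between Kashlid and WT lay between 4720 and 6457 over the alternatives, and was 918 with a limit of at least 2-fold as well. The labels tie no replicate number to a shared culture or batch. The correlation of same-numbered deviations over 10866 genes was -0.019 between WT and Kashlid, 0.055 between WT and SUN2KO and 0.111 between WT and LBD. Between the modified lines it was positive throughout: 0.195 for SUN2KO and Kashlid, 0.221 for Kashlid and LBD, and 0.207 for SUN2KO and LBD. The main fit took the numbers not as pairs because no label ties them, although these values leave a shared replicate effect among the modified lines possible. The fit with a replicate block called 6457 genes, 1753 against the mean of the other lines, and 42 interferon effectors. Against the mean of SUN2KO and LBD, DESeq2 called 972 genes, the limit of at least 2-fold left 110, and leaving out 1 library gave 803 (SUN2KO replicate 1) to 1504 (Kashlid replicate 2), against 1487. Of 195 named values, 10 lost their call in DESeq2, 7 and 11 without Kashlid replicates 1 and 2, 11 and 12 without WT replicates 1 and 2, and 8 with window medians as offsets. The strictest filter tested 172 of them and the fit of 4 libraries 188. RMRP was at 5.48 without Kashlid replicate 1. Signs turned for RMRP without Kashlid replicate 2 (-0.77), and for MCM10 (0.05) and VIM (0.01) with the window offset, each with an adjusted p above the threshold. The cause of these changes was not tested. Depth limits genes of low level: 17.5% of 1175 genes under 1 CPM were called, against 60.3% of 2540 genes above 100 CPM.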

Other observations

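Housekeeping genes were not uniform between Kashlid and WT. Of 15 tested 4 rose and 7 fell, with a median of -0.06. TFRC, the transferrin receptor, was at 1174 and 1163 CPM in WT and at 633 and 631 CPM in Kashlid (log2 fold change -0.89 ± 0.04, adjusted p = 8.26e-13, edgeR's quasi-likelihood test). PPIA, the isomerase cyclophilin A, fell from 2219 and 2165 CPM to 1595 and 1699 CPM (-0.41 ± 0.04, adjusted p = 2.83e-08, but -0.1 with the window median taken out, adjusted p = 0.037). Both are often used as references for other measurements, and in both the groups did not overlap.

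Replication-dependent histones, whose RNA has no poly(A) tail, were at a summed 310.1 and 305 CPM in WT and 264 and 261 CPM in Kashlid, with 1 of 16 called higher and 3 lower. The linker histone HIST1H1E rose from 0.357 and 0.284 CPM to 1.62 and 1.47 CPM (2.25 ± 0.51, adjusted p = 0.00128), and HIST1H2BC fell (-0.88 ± 0.24, adjusted p = 0.00536). Of 13 markers of MDA-MB-231 and related lines 2 rose and 5 fell, with S100A4, a calcium-binding protein of motile cells, at 432 and 430 CPM in WT and at 330.2 and 331 CPM in Kashlid (-0.38 ± 0.04, adjusted p = 4.9e-07). Among 5 tested fibroblast and blood cell markers 2 rose and 1 fell: the matrix proteoglycan LUM fell from 87.3 and 94 CPM to 37.1 and 34 CPM (-1.35 ± 0.08, adjusted p = 4.25e-11), and the lysosomal glycoprotein CD68 rose from 15.8 and 17 CPM to 34.7 and 38.4 CPM (1.15 ± 0.09, adjusted p = 3.52e-09). Of 11 markers of HEK293 cells 3 were tested, with 1 higher, 1 lower (TUBB2B, given above) and 1 not called. The summed level of the 11 was 63.4 and 71.3 CPM in WT and 55.9 and 57.2 CPM in Kashlid. The higher one was LIN28B, an RNA-binding protein of early development. It had 0 counts over the WT libraries and 17 over the Kashlid libraries, at least 5.68-fold higher with a floor of 3 counts over the group. LIN28B also had 11 and 17 counts in SUN2KO and 12 and 11 in LBD.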
